A study of Mus musculus with 68 samples.

Results

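The 10 genes described here, Nr4a2, En1, En2, Foxa1, Foxa2, Lmx1a, Lmx1b, Pitx3, Otx2 and Sox6, encode transcription factors that specify midbrain dopamine neurons in the embryo or keep their identity in the adult. They were taken by gene symbol from the 36172 genes of a Patch-seq table of dopamine neurons of the ventral tegmental area (VTA). All 10 symbols were present. In Patch-seq, the contents of a neuron, with its nucleus, are drawn into the recording pipette after a patch-clamp recording in a brain slice and sequenced. The table holds 33 cells labelled 3xTg and 35 labelled WT, from mice 12 months old. 3xTg mice are homozygous for 3 human transgenes, APP Swe, PS1 M146V and tau P301L, on a hybrid background given as C57BL/6;129×1/SvJ;129S1/Sv, from an embryo injected in a B6;129. WT mice are a separate line without the transgenes on the same hybrid background. Mice of both sexes were used. The study kept cells with transcripts of Th, Slc6a3 and Slc18a2. These 3 genes are the enzyme and the transporters that make, recover and store dopamine, and all of them had a count in 68 of 68 cells.

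The labels name no mouse for a cell. Each genotype is therefore 1 sample, no test between genotypes was made, and an SD over cells describes cells and not animals. Between 492505 and 1678624 counts were obtained per cell, on 3695 to 10426 genes. The median number of genes was 8511 in 3xTg cells and 7476 in WT cells. The numbers in the cell labels run in blocks of 1 genotype (1 to 22, 57 to 74 and 94 to 96 in WT, 24 to 55 and 76 to 92 in 3xTg), and what they mark is not stated. The median number of genes was 5233 in the first WT run and 8441 in the second, 7648 in the first 3xTg run and 9308 in the second, and 6216 in the third WT run of 3 cells. Of the genes that the study used to exclude cells (Aldh1l1, P2ry12, Pvalb and Tmem119), at least 1 had a count in 10 of 68 cells.

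Midbrain dopamine neurons arise from the floor plate. Foxa1 and Foxa2, forkhead factors that open chromatin, and Lmx1a and Lmx1b, LIM homeodomain factors, act in the progenitors and again in young neurons. Nr4a2 (Nurr1), an orphan nuclear receptor, switches on dopamine synthesis and transport genes, and Pitx3, a paired-like homeodomain factor, is required for neurons of the substantia nigra and for Aldh1a1 expression there. The engrailed homeodomain factors En1 and En2 maintain the neurons in the adult. Otx2, a homeodomain factor, marks a ventral share of the VTA, and Sox6, an SRY-box factor, marks mostly the substantia nigra and the lateral VTA.

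In mm10 coordinates, the genes lie at chr2:57107226-57124003 (Nr4a2, minus strand), chr1:120602487-120607991 (En1, plus), chr5:28165696-28172166 (En2, plus), chr12:57540632-57546121 (Foxa1, minus), chr2:148042878-148046969 (Foxa2, minus), chr1:167689558-167848733 (Lmx1a, plus), chr2:33564536-33640511 (Lmx1b, minus), chr19:46135686-46148325 (Pitx3, minus), chr14:48658184-48662872 (Otx2, minus) and chr7:115471344-116038744 (Sox6, minus). The interval of Pitx3 overlaps Elovl3 on the opposite strand, and that of Sox6 overlaps 1110006G14Rik, which had no count. Libraries were directional, but whether counting used strand is not stated. Elovl3 had a count in 8 cells, of which 5 were among the 14 with Pitx3, so the Pitx3 counts are uncertain to that degree.

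The promoters of 5 of these genes are printed as the DNA from which the 2 most often counted factors (Nr4a2, En1) and 3 seldom counted ones (Foxa1, Pitx3, Otx2) are transcribed. Each is the 250 bases before a RefSeq start site in GRCm38.p6 (the mm10 assembly), 5′ to 3′ on the gene's strand. Capitals mark a match, on either strand, to 1 of 8 short motifs searched, namely AGGTCA (nuclear receptors), TGTTTAC (forkhead factors, first form), TGTTTGC (forkhead factors, second form), TAATTA (homeodomain core), TAATCC (the Pitx3 and Otx2 class), AACAAT (SOX core), TATAAA (the TATA box) and TGACGTC (a partial cAMP response element). None of these motifs contains another. The windows are chr2:57124004-57124253 for Nr4a2, chr1:120602237-120602486 for En1, chr12:57546112-57546361 for Foxa1, chr19:46148326-46148575 for Pitx3 and chr14:48665110-48665359 for Otx2. The windows of Nr4a2, En1 and Pitx3 end at the gene's start in the deposited table, that of Foxa1 ends 10 bases past it, inside the gene, and that of Otx2 lies 2237 bases upstream.
Nr4a2: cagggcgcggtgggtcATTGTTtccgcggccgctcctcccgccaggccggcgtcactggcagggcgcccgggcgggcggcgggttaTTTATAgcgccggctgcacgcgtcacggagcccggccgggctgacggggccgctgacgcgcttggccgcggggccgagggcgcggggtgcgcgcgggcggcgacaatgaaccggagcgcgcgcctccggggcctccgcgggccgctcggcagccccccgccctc
En1: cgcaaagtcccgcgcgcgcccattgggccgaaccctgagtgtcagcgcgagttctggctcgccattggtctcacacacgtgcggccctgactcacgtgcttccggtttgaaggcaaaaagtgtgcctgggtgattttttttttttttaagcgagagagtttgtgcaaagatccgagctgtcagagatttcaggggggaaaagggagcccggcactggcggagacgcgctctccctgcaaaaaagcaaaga
Foxa1: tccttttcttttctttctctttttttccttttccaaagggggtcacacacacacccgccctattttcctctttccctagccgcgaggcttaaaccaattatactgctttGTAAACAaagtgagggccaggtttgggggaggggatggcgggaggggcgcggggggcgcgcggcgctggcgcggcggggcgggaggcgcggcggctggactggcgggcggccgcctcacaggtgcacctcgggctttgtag
Pitx3: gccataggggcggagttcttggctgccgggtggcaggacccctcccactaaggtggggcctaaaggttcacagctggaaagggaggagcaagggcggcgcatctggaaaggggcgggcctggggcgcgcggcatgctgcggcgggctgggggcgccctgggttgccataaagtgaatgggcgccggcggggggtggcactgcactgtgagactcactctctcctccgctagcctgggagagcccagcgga
Otx2: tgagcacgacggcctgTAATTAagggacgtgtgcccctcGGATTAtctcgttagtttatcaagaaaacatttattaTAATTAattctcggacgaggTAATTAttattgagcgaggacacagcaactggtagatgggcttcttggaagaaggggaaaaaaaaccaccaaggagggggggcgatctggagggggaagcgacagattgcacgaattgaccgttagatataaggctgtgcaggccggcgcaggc

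The Nr4a2 window held 44 CG dinucleotides, against a median of 6 over all 32851 promoter windows of the same length, with 1 SOX core and 1 TATA box. The windows of Foxa1, En1, Pitx3 and Otx2 held 21, 19, 16 and 14 CG. The Foxa1 window held 1 forkhead motif of its own class, written GTAAACA on the gene's strand, which 3.17% of all windows hold. The Otx2 window, 1 of 4 RefSeq start sites of the gene and the one with the most matches, held 3 copies of TAATTA (in 4.84% of all windows) and 1 of TAATCC (in 6.25%). The En1 and Pitx3 windows held none of the 8 motifs, which says only that these letters are not in these windows. RefSeq windows were found for 9 of the 10 genes, all but En2. Over all windows, AGGTCA was found in 14.02%, TGTTTGC in 4.30%, AACAAT in 9.42%, TATAAA in 12.4% and TGACGTC in 2.78%.

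Transcripts of 2 of the 10 factors were counted in nearly every dopamine neuron, 1 in most, 6 in a minority and 1 in a single cell. En1 had at least 1 count in 65 of 68 cells (95.6%, exact 95% interval 87.6% to 99.1%) and Nr4a2 in 64 (94.1%, 85.6% to 98.4%). Of all genes with any count in the table, 8.35% and 9.35% were counted in as many cells. Lmx1a followed with 47 cells (69.1%, 56.7% to 79.8%), Foxa1 with 23 (33.8%), Foxa2 with 19 (27.9%), Sox6 with 16 (23.5%), Otx2 with 15 (22.1%), and En2 and Pitx3 with 14 each (20.6%, 11.7% to 32.1%). Lmx1b was counted in 1 cell (1.47%). Intervals of shares (Clopper-Pearson) and of sums (Poisson) cover counting error only, since the cDNA went through 28 PCR cycles and no molecular identifiers are stated. In the plot of shares of cells by genotype, En1, Nr4a2 and Lmx1a stand above the other 7 genes in both.

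**Figure D1:**
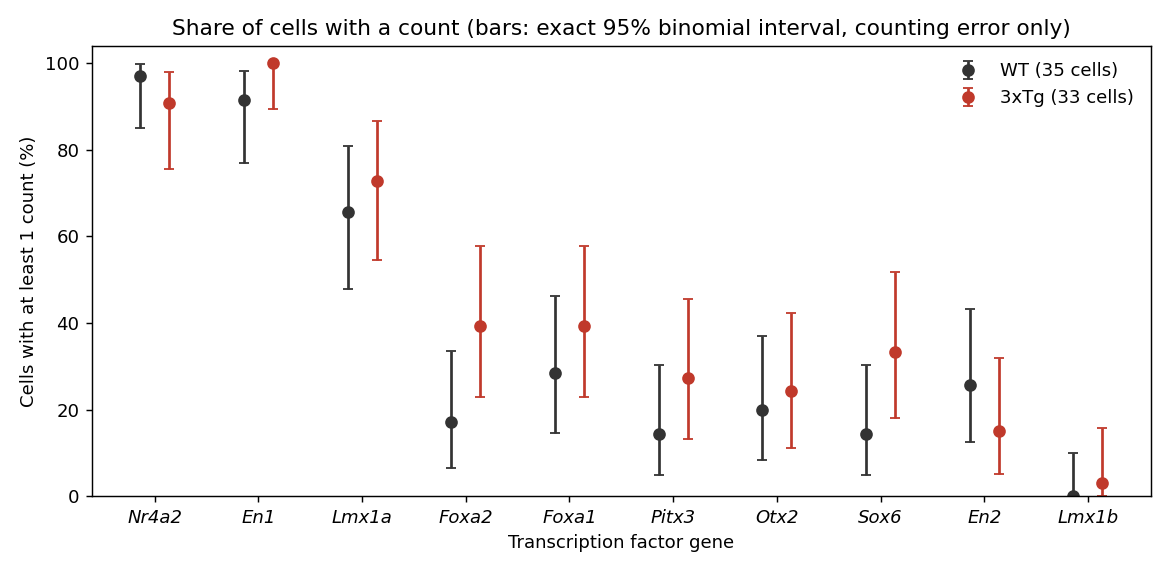
Share of cells (percent, y axis) with at least 1 count of each factor (x axis) in WT (35 cells, dark) and 3xTg (33 cells, red), with exact 95% binomial intervals for counting error. En1 and Nr4a2 lay above 90% in both genotypes, Lmx1a at 65.7% and 72.7%, and the other 7 genes below 40%.

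Per length of transcript, Nr4a2 had the highest level, 76.1 CPM per kb over all cells (CPM being counts scaled to library size, and kb the length of exons), followed by En1 at 35.98. Lmx1a (9.93), Foxa2 (6.38), Foxa1 (5.57), Pitx3 (4.36), Otx2 (3.62), Sox6 (2.05), En2 (1.80) and Lmx1b (0.041) came after them. The values of the 2 genotypes, which are different conditions and not replicates, were used as a rough guide to how firm this order is. The spread over cells and runs is not part of it. Nr4a2 had 65.6 in WT and 85.8 in 3xTg, and En1 had 32.3 and 39.4 in the same order, so that neither overlapped its neighbours. Lmx1a (6.24 and 13.4 CPM per kb) overlapped Foxa2 (3.79 and 8.78), Foxa2 overlapped Foxa1 (4.28 and 6.76), Foxa1 overlapped Pitx3 (4.03 and 4.68), and Sox6 (1.81 and 2.27) overlapped En2 (2.64 in WT and 1.02 in 3xTg). Their order cannot be told from these cells. Otx2 (3.83 in WT and 3.42 in 3xTg) overlapped no neighbour, but 3xTg cell 26 alone held 64.1% of the 3xTg counts of Pitx3, the gene above it. Otx2 also lay above Foxa2 (3.79) in WT, so its place is no firmer.

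Among the factors that maintain the adult neurons, Nr4a2 had a median level of 8.15 over 3xTg cells (lowest 0, highest 10.51) and of 7.19 over WT cells (lowest 0, highest 10.23), on the scale of log2(normalized count + 1). The ranges overlapped over nearly their whole length. In cells with a count, the median was 236 counts and the highest 1150 (WT cell 94). Nr4a2 was the only factor with at least 100 counts in most cells, 48 of 68. No count of Nr4a2 was found in 3xTg cells 26, 39 and 43 and in WT cell 6. Of the Nr4a2 counts, those of 40 of 64 cells were not whole numbers (tolerance 0.001), and the same was true of 25 of the 51 Lmx1a values above 0.

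En1 had a median level of 6.41 over 3xTg cells (lowest 3.02, highest 9.16, log2 scale) and of 5.55 over WT cells (lowest 0, highest 8.30). The highest single value was 372 counts, in 3xTg cell 24. The 3 cells without En1 were WT cells 6, 7 and 9, all of the first WT run. The SD over cells was 1.20 in 3xTg and 2.30 in WT. En2, the paralog of En1, was counted in 14 cells, with a median of 16.5 counts in those cells and at most 134 (WT cell 16). Of these 14 cells, 13 also had En1, beside 12.9 expected from the shares of the 2 genes within each run of label numbers.

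**Figure D2:**
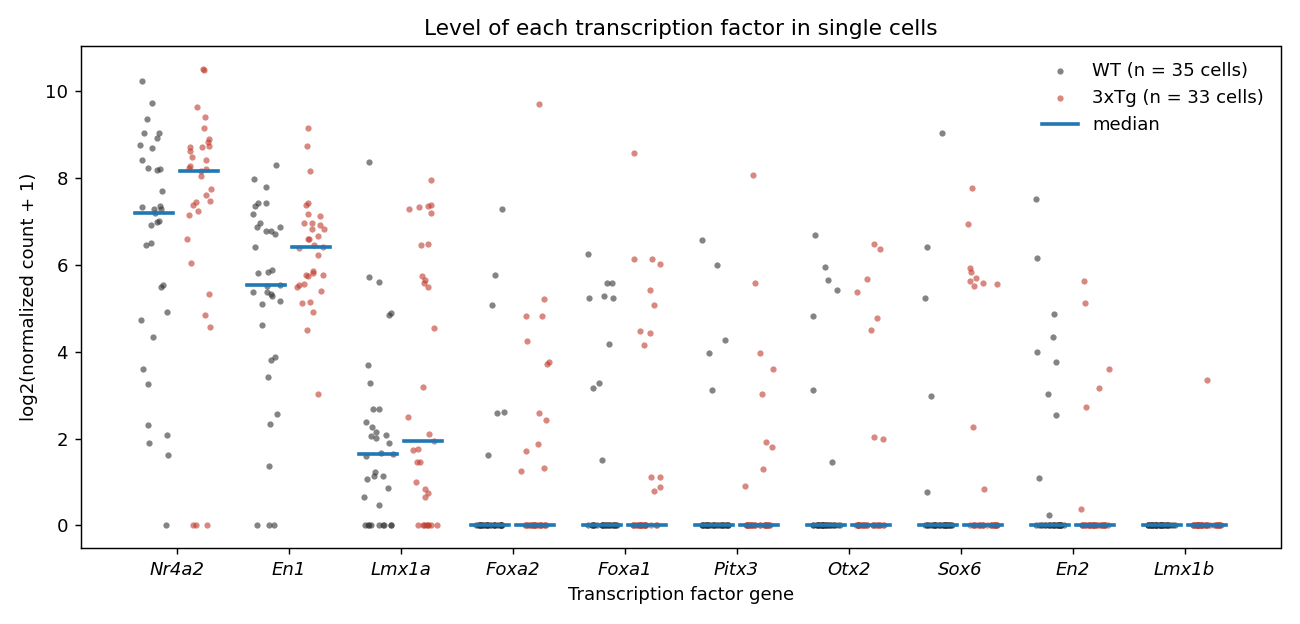
Level of each factor in single cells (y axis, log2(normalized count + 1); x axis, genes in order of level per kb), WT cells dark, 3xTg cells red, blue bars at the median. The cells of the 2 genotypes overlapped for every gene counted in both, and the medians of 7 genes were 0.

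Of the floor plate factors, Foxa1 was counted in 23 cells with a median of 44 counts in those cells, and Foxa2 in 19 cells with a median of 12. A single cell held much of each sum. 3xTg cell 38 held 356 counts of Foxa1, 44.95% of the 3xTg sum, and 3xTg cell 24 held 540 counts of Foxa2, 76.8% of the 3xTg sum. In the other cells, Foxa2 reached 127 counts at most (WT cell 57). Foxa1 and Foxa2 were counted together in 6 cells, beside 7.07 expected.

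Lmx1a was counted in many cells but at few counts. Of the 47 cells with Lmx1a, 28 had fewer than 10 counts and 8 had at least 100. In cells with a count, the median was 40.4 counts in 3xTg (range 1 to 215) and 4.33 in WT (range 1 to 420). At least 1 count was found in 72.7% of 3xTg and 65.7% of WT cells, 7.01 points apart, beside 7.27 points for the median gene. At least 10 counts were found in 13 of 33 3xTg cells and in 6 of 35 WT cells, and no share over all genes at this minimum is given. Low counts were also found for factors of other neurons. Gata3, a factor of midbrain GABA neurons, and Sim1, best known from the hypothalamus, each had a count in 64 of 68 cells, with medians of 5.60 and 6.17 counts in those cells. Lmx1b was counted only in 3xTg cell 90, with 14 counts. No count in 35 WT cells allows, at a floor of 3 cells, a share of up to 8.57% of cells with a count, and does not limit the share of cells that express the gene.

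Pitx3 was counted in 14 cells, 9 of 33 3xTg and 5 of 35 WT, with a median of 15.5 counts in those cells. Values ran from 1 to 152 counts in 3xTg (highest in cell 26) and from 7 to 77.5 in WT (highest in cell 57). All 14 cells with Pitx3 also had Tacr3, a neurokinin receptor gene counted in 47 cells, beside 9.57 expected. Aldh1a1, the retinaldehyde dehydrogenase gene that Pitx3 is known to require in the substantia nigra, was found in 9 of the 14, beside 9.88 expected.

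Otx2 and Sox6, which mark different dopamine neurons in development, were both counted in a minority of cells, with fewer than 10 counts in 4 of 15 and 4 of 16 of those cells. Otx2 had 2 to 94 counts in 8 3xTg cells (median 38) and 2 to 120 counts in 7 WT cells (median 57). Sox6 had 1 to 190 counts in 11 3xTg cells (median 67) and 1 to 388 counts in 5 WT cells (median 52.3). Otx2 and Sox6 were counted together in 5 cells, beside 3.90 expected. In 3xTg cells alone the number was 2 beside 3.21 expected, and in WT cells alone 3 beside 0.69. The markers named with Pitx3, Otx2 and Sox6 were chosen with their values in view. Of the 15 cells with Otx2, 14 had Grp, the gene of gastrin-releasing peptide (8.40 expected), 11 had Neurod6, a factor of ventromedial VTA neurons (7.14 expected), and 14 had Aldh1a1 (11.3 expected). Of the 16 cells with Sox6, 10 had Ndnf, a neurotrophic factor gene (5.65 expected), 8 had Aldh1a1 (11.1 expected), 9 had Grp (8.77 expected) and 1 had Slc17a6, the vesicular glutamate transporter gene (3.46 expected). Excesses were not limited to genes of dopamine neuron subtypes. C1qb, a microglia gene, was found in 9 of the 15 cells with Otx2 (5.62 expected). C1qa, also of microglia, was found in 2 of them (3.40 expected), and Calb1, the calbindin gene, in 14 (14.8 expected). Pou4f1, a factor of red nucleus and habenula neurons, was found in 9 of the 16 cells with Sox6, also more than expected. These are counts of cells whose mice are not named, and they were not tested.

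A median of 4 of the 10 factors were counted per cell in each genotype, with a range of 1 to 7 in 3xTg and 0 to 6 in WT. The mean was 4.455 ± 1.416 (SD, n = 33 cells) in 3xTg and 3.743 ± 1.502 (n = 35 cells) in WT. Exactly 3 factors were found in 17 cells, 4 in 20, 5 in 11, 6 in 9 and 7 in 4 cells, and no cell had more. The number of factors followed the number of genes detected in the cell, with a Spearman rho of 0.59 over 68 cells and of 0.49 after the mean of each run of label numbers was subtracted. With the total count the values were 0.28 and 0.14. The cells held 44 different combinations of factors, 34 of them in 1 cell each. The commonest was Nr4a2 with En1 and Lmx1a alone (9 cells, 3 of them 3xTg). WT cell 6 had none of the 10 factors, although it had 5743 counts of Th, 8235 of Slc6a3 and 6011 of Slc18a2. It had 3944 genes with a count.

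Of the 45 pairs of factors, 38 had at least 1 cell expected with both, where the expectation multiplies the shares of the 2 genes within each run. In 27 of the 38 pairs, more cells than expected had both. The expectation leaves out the number of genes detected per cell, which the number of factors followed within runs (rho 0.49). No share of pairs above expectation among other genes is set beside this count, so it is not read as a trait of these factors. The differences ran from -1.68 to 2.79 cells (observed minus expected), with a median of 0.63 cells. The largest was that of Foxa1 with Lmx1a, found together in 19 cells beside 16.2 expected. En2 with Sox6 followed (5 beside 2.98). Lmx1a with Otx2 had the largest shortfall, 9 cells beside 10.7. At a minimum of 5 counts the differences ran from -2.65 to 4.89, and at a minimum of 10 counts from -2.99 to 4.18. In 2 of the 38 pairs the number could not differ from expectation, since in every run 1 of the genes was in all cells or in none. Among the pairs that could differ, 27 of 36 were above expectation in all cells, 19 of 27 in 3xTg cells alone and 24 of 31 in WT cells alone.

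**Figure D3:**
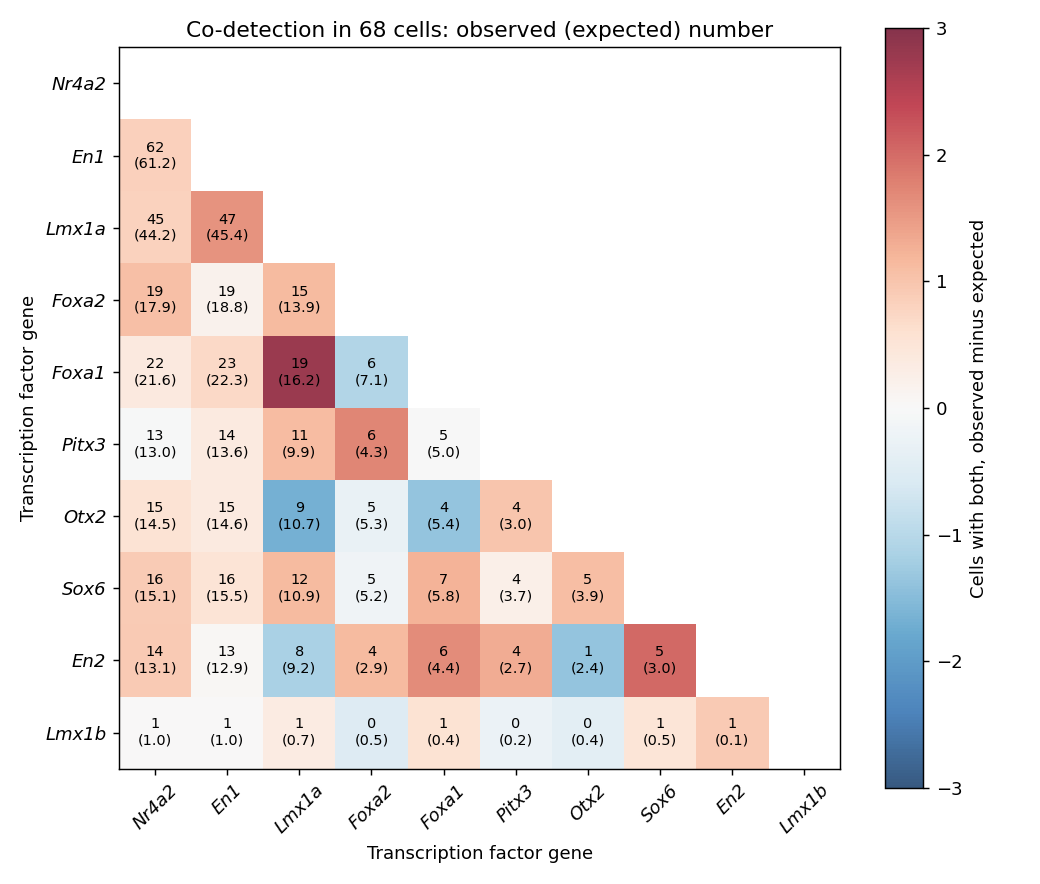
Number of the 68 cells in which both factors of a pair (x and y axes) had a count, with the number expected within runs of label numbers in parentheses, and colour for the difference in cells. Foxa1 with Lmx1a lay furthest above expectation (19 cells beside 16.2) and Lmx1a with Otx2 furthest below (9 beside 10.7).

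The known targets of these factors were set beside the 3 factors counted in at least 34 cells. Correlations are Spearman's rho over 68 cells of log2(normalized count + 1) after the mean of each run was subtracted. The values share size factors and library depth, and no p is given. Over 7303 genes counted in at least 34 cells, the median rho was 0.09 with Nr4a2, 0.09 with En1 and 0.07 with Lmx1a. Nr4a2 had a rho of 0.48 with Ddc (rank 110 of 7303), the second enzyme of dopamine synthesis, 0.47 with Th (rank 125), and 0.45 with Slc18a2 (rank 192), the vesicular monoamine transporter gene. With Slc6a3, the dopamine transporter gene, it was 0.28, and with Aldh1a1 0.02. The relation with Th differed between runs, at 0.12 and 0.67 in the first and second WT runs and 0.53 and -0.25 in the first and second 3xTg runs. Within the same 4 runs, it lay between -0.02 and 0.74 with Ddc and between -0.17 and 0.66 with Slc18a2, with both genes at or below 0 in the first WT and the second 3xTg run. En1 had a rho of 0.47 with Ddc (rank 121), 0.47 with Ntf3 (rank 126), a neurotrophin gene, 0.42 with Ret (rank 272), the receptor gene for the GDNF family, and 0.36 with Th. Its values were lower with Slc6a3 (0.22), Gch1 (0.19) and Aldh1a1 (0.11), and -0.04 with Bdnf. Between Nr4a2 and En1 themselves it was 0.26.

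For Lmx1a the values with synthesis and transport genes were near 0. Its rho was -0.07 with Th, 0.07 with Slc6a3 and -0.03 with Ddc. With Aldh1a1 it was -0.57, the lowest of the 7303 genes. It was negative in each genotype and in each of the 4 larger runs before any subtraction: -0.64 in 3xTg (33 cells), -0.32 in WT (35 cells), -0.25 and -0.39 in the first and second WT runs, and -0.73 and -0.47 in the first and second 3xTg runs. Counted out, of the 19 cells with at least 10 counts of Lmx1a, 4 had at least 100 counts of Aldh1a1 and 10 had none. Of the other 49 cells, 37 had at least 100 and 8 had none. These minimums were set with the values in view, and the counts restate the correlation. With Bdnf, a neurotrophin gene, the rho of Lmx1a was 0.34 (rank 98).

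**Figure D4:**
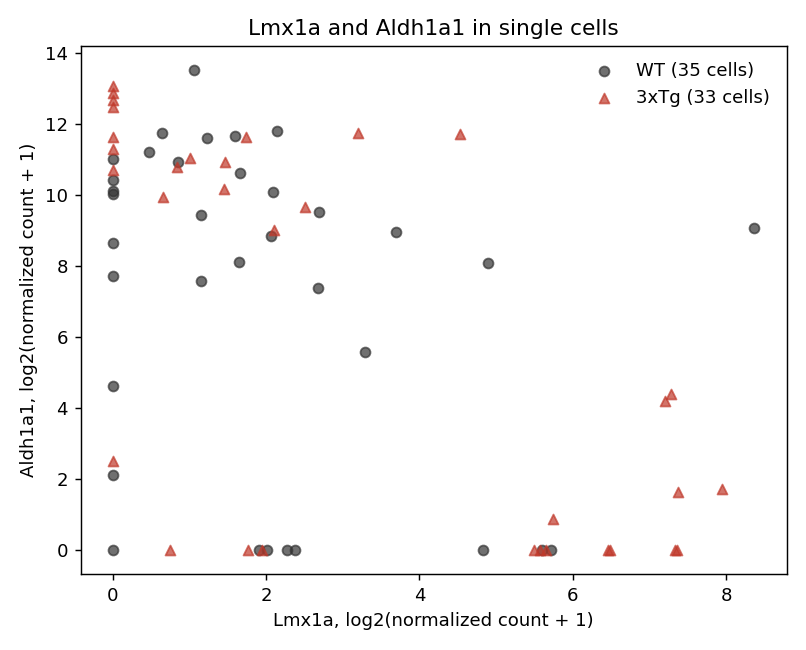
Lmx1a (x axis) and Aldh1a1 (y axis) in single cells, both as log2(normalized count + 1), WT cells as dark circles and 3xTg cells as red triangles. Most cells lay along 1 axis or the other, with Spearman's rho at -0.64 in 3xTg and -0.32 in WT.

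Among all 7303 genes, those most like Nr4a2 by this measure included Rab4a (rho 0.65) and Prkar1b (0.63), and the 3 most like En1 were Puf60 (0.69), Usp14 (0.66) and Ier3ip1 (0.64). The 3 most like Lmx1a were Mgrn1 (0.48), Kidins220 (0.46) and Abhd15 (0.44). Without the subtraction of run means, 2 of the 3 genes named for En1 and 2 of the 3 for Lmx1a were again among the top 3.

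The comparison of genotypes asks whether the factors that hold dopamine neuron identity are at other levels in 3xTg than in WT cells. It gave higher sums in 3xTg for 7 of the 9 factors that could be compared, and Nr4a2, En1 and Lmx1a were the ones for which the ratio stayed above 0 with any 1 cell left out and in both pairs of runs. Of all genes, 47.5% had a ratio above 0, with a median log2 ratio of -0.05. In 3xTg cells, Nr4a2 had 11796 counts in all (321 CPM, interval 316 to 327) and in WT cells 8349 (245 CPM, 240 to 251), a log2 ratio of 0.39. En1 had 3798 (103 CPM, 100.2 to 107) and 2881 (84.7 CPM, 81.6 to 87.8), a log2 ratio of 0.29. Lmx1a had 1641 (44.7 CPM, 42.6 to 46.9) and 710 (20.9 CPM, 19.4 to 22.5), a log2 ratio of 1.10. Leaving out 1 cell at a time moved these ratios between 0.29 and 0.55 for Nr4a2, between 0.18 and 0.39 for En1, and between 0.94 and 2.35 for Lmx1a. WT cell 14 held 59.2% of the WT counts of Lmx1a, and the ratio of 2.35 was the one without it. In the first and second runs the log2 ratios were 0.73 and 0.33 for Nr4a2, 0.37 and 0.43 for En1, and 0.51 and 2.09 for Lmx1a.

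Past 2-fold in either direction were 3 of the 9 factors (33.3%), beside 22% of the 12393 genes with a count in at least 10 cells. Foxa2 and Lmx1a were higher in 3xTg, where 10.1% of all genes were, and En2 was lower, where 12% of all genes were. With 9 genes these shares do not set the factors apart. Lmx1b was not among the 9. Its 14 counts in 3xTg, all from 1 cell, against 0 in WT were at least 4.32-fold higher at a floor of 3 counts for the WT group.

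For the other 6 factors, the ratio moved widely with single cells or between runs. Foxa2 summed to 703 counts in 3xTg against 281 in WT. The log2 ratio of 1.21 was -0.85 without 3xTg cell 24 and 2.04 without WT cell 57. In the first runs it was 5.91, on 8 WT counts, and in the second -1.73. Foxa2 was counted in 39.4% of 3xTg cells (13 of 33, interval 22.9% to 57.9%) and 17.1% of WT cells (6 of 35, 6.56% to 33.6%), 22.3 percentage points apart, and it was the only factor with a share at least 20 points higher in 3xTg. Cells with few counts made up much of this gap. At a minimum of 5 counts the shares were 21.2% and 14.3%, and at a minimum of 10 counts 21.2% and 8.57%. Of all genes, 15.8% had such a difference, and the median gene was counted in 7.27 points more of the 3xTg cells. Between the first runs the cells with Foxa2 were 7 of 21 3xTg and 1 of 17 WT, and between the second runs 6 of 12 and 5 of 15.

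En2 was the only factor past 2-fold with less in 3xTg, with 133 counts against 318 in WT, a log2 ratio of -1.37. It was -0.62 without WT cell 16, which held 42.1% of the WT sum, and -2.07 without 3xTg cell 55. The ratio was -2.17 in the first runs and 0.82 in the second, where WT cells had 28 counts and 3xTg cells 51, all in 1 cell. En2 was counted in 5 of 33 3xTg and 9 of 35 WT cells. Sox6 summed to 739 counts in 3xTg against 545 in WT. The log2 ratio of 0.33 was -0.06 without 3xTg cell 78 and 2.09 without WT cell 16, which held 71.2% of the WT sum. Sox6 was counted in 5 of 21 3xTg and 3 of 17 WT cells of the first runs and in 6 of 12 and 1 of 15 of the second. The WT cells of the second run had 1 Sox6 count in all, too few for a ratio.

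Foxa1 had 792 counts in 3xTg and 465 in WT (log2 ratio 0.66), Pitx3 237 and 189 (0.22) and Otx2 355 and 369 (-0.17). Each changed sign when 1 cell was left out, to -0.15 for Foxa1 without 3xTg cell 38, to -1.23 for Pitx3 without 3xTg cell 26 and to 0.35 for Otx2 without WT cell 63. The signs also differed between the first and second runs, at 1.76 and -0.21 for Foxa1, 0.97 and -1.10 for Pitx3 and 0.84 and -0.55 for Otx2. Without the cell with most counts in each genotype, the log2 ratio was 2.20 for Lmx1a, 1.70 for Sox6, -1.32 for En2, 0.45 for Nr4a2, 0.28 for En1, 0.19 for Foxa1, -0.03 for Foxa2, -0.04 for Otx2 and -0.50 for Pitx3.

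**Figure D5:**
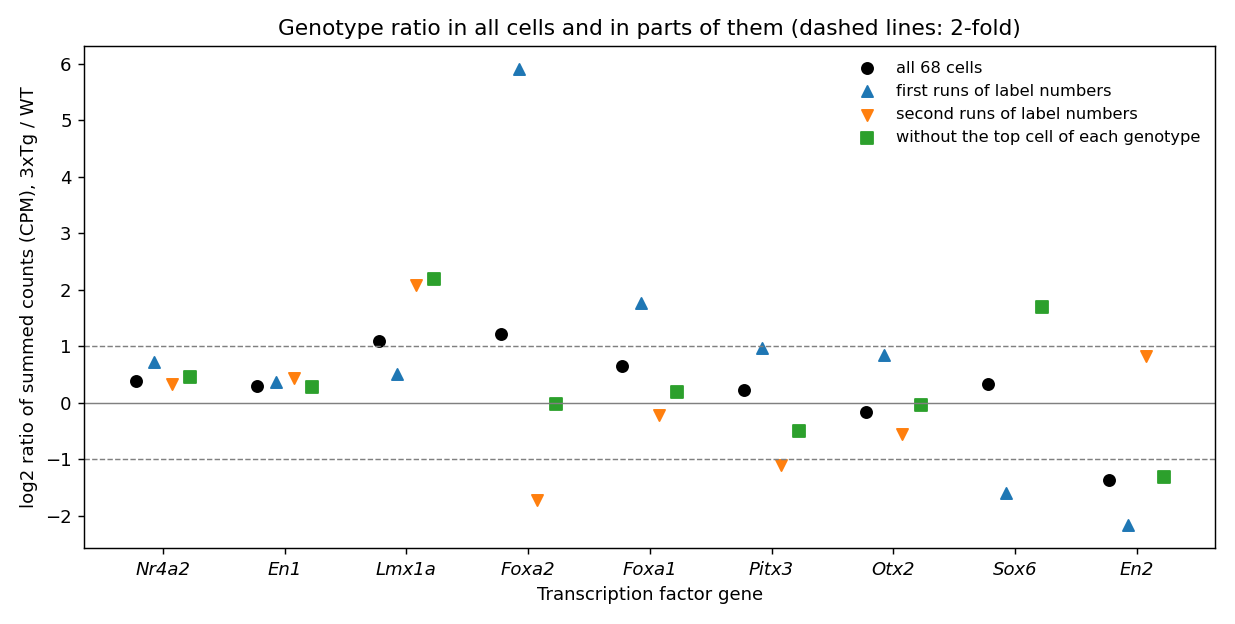
Log2 ratio of summed counts as CPM, 3xTg over WT (y axis), for 9 factors (x axis), in all 68 cells (black circles), in the first and second runs of label numbers (blue and orange triangles) and without the cell with most counts of each genotype (green squares); dashed lines mark 2-fold. Nr4a2, En1 and Lmx1a lay above 0 in all of them, and Sox6 has no second-run point, since WT cells had 1 count there.

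On the log2 scale, where each cell weighs the same, the difference of the means over cells (3xTg minus WT) was 1.20 for Lmx1a (3.15 ± 2.91 and 1.95 ± 1.99, SD over cells), 1.09 for En1 (6.32 ± 1.20 and 5.23 ± 2.30), 1.05 for Sox6 (1.74 ± 2.74 and 0.70 ± 2.05), 0.82 for Nr4a2 (7.24 ± 2.70 and 6.42 ± 2.62) and 0.73 for Foxa2 (1.44 ± 2.29 and 0.71 ± 1.80). The median gene differed by 0.39 on this scale, so 8 of 9 factors above 0 stand beside 72.1% of all genes. Measured from the median gene, 5 of 9 were above it, with Lmx1a at 0.81, En1 at 0.70, Sox6 at 0.65, Nr4a2 at 0.43 and Foxa2 at 0.33, and En2 lay lowest at -0.84. Each of these differences was smaller than the SD over cells of either genotype.

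Between the first runs, the mean level of Nr4a2 differed by 0.03 and between the second by 2.06. The corresponding values were 1.62 and 0.82 for En1, 1.25 and 1.15 for Lmx1a, 1.21 and 0.08 for Foxa2, and -0.12 and 3.06 for Sox6. The median gene differed by 0.39 and 0.44. Of the factors named here, Nr4a2 and Sox6 lay below it in the first runs and Foxa2 in the second. Runs of the same genotype also differed. From the first to the second run, Sox6 differed by 2.14 in 3xTg and by -1.03 in WT, and Nr4a2 by 1.52 in 3xTg and by -0.51 in WT. For these 2 genes, the runs of 3xTg cells lay further apart than the genotypes did. The same held for Otx2 (1.26 in 3xTg and 1.31 in WT, against 0.18 between genotypes) and Pitx3 (-0.28 in 3xTg, against 0.23). Runs of WT cells lay further apart than the genotypes for Foxa2 (1.33 against 0.73), En2 (-1.19 against -0.45) and Foxa1 (0.66 against 0.35). For En1 and Lmx1a they did not. The median gene differed by 0.50 between the WT runs and by 0.47 between the 3xTg runs.

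The known targets, the genes of dopamine synthesis, transport and trophic support, were compared by both measures. By summed counts, 0 of 10 targets were past 2-fold in either direction, where 22% of all genes were. Their median log2 ratio was 0.34, beside -0.05 for all genes, with 0.32 for Th, 0.38 for Slc6a3, 0.43 for Slc18a2 and 0.21 for Ddc. By mean levels, the median difference of the list was 0.76, with 2.10 for Ret, 1.52 for Gch1, 1.43 for Bdnf, 1.25 for Drd2, 0.41 for Th and -0.89 for Aldh1a1, beside 0.39 for the median gene. Drd2 and Aldh1a1 had the opposite sign by summed counts, at -0.11 and 0.30. The target Vip had no count in any cell. Of the 14 other transcription factors known from these neurons, 11 could be compared. Ebf3 was past 2-fold higher in 3xTg (1.38), and Satb1 (-1.23), Bcl11a (-1.83), Nfib (-1.65), Neurod6 (-1.07) and Nr4a3 (-2.65) were past 2-fold lower, beside the 10.1% and 12% of all genes given above. The median log2 ratio of the list was -0.94, while its median difference of mean levels was 0.03. Between the first and second runs, the ratio was -1.72 and 0.37 for Satb1, 0.16 and -1.84 for Neurod6, and 3.51 and 0.14 for Ebf3. Bcl11a (-0.69 and -2.88) and Nfib (-1.90 and -1.32) were lower in 3xTg in both, and at -1.43 and -1.53 without the top cell of each genotype. Without the top cell of each genotype, Satb1 was at -0.84 and Nr4a3 at -1.11. The Nr4a3 value rests on fewer than the 15 and 87 counts of all 3xTg and WT cells.

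Markers of other cells moved with the genotypes as well. The astrocyte list (5 genes, Aldh1l1 at 0 in every cell) summed to at most 272 CPM in a 3xTg cell and 2410 CPM in a WT cell. Summed over all cells, microglia markers had 118 CPM in 3xTg and 408 in WT, oligodendrocyte markers 18.1 and 35.1, and markers of GABA neurons 35.9 and 75.5. Medians over cells were 0 for astrocyte markers in both genotypes and 29.6 in 3xTg and 23.7 in WT for microglia markers. In the same order they were 9.21 and 9.40 for oligodendrocyte markers and 35.2 and 56.2 for GABA neuron markers. The highest cell for microglia markers held 3642 CPM in 3xTg and 2866 in WT. The cells that set the ratios of Foxa2 (3xTg cell 24), Lmx1a (WT cell 14), Sox6 and En2 (WT cell 16) and Pitx3 (3xTg cell 26) held no count of the 4 genes used to exclude cells. Of other markers, 3xTg cell 26 held the 272 CPM of the astrocyte list given above, and WT cell 16 held 153 CPM of the GABA neuron list, whose median over WT cells was 56.2. The part of other cells' RNA and of the number of genes detected in the genotype differences was not tested.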

How the data were processed

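RNA of 68 single dopamine neurons (33 3xTg, 35 WT) was sequenced after patch-clamp recording, from libraries made with 28 PCR cycles. The authors trimmed the reads, aligned them to the mm10 RefSeq transcriptome in Strand NGS, removed duplicates and deposited estimated counts per gene, of which 55.3% of those above 0 were not whole (tolerance 0.001). The deposited log2 values beside them were normalized by the authors with DESeq2's algorithm and served as an alternative only.

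From the counts, size factors were calculated by the median of ratios over 787 genes, and levels are log2(normalized count + 1). For sums per genotype, given as CPM, rounded counts were used. A gene was counted in a cell from 1 count on, and genes with a count in at least 10 cells (12393) served as background. Intervals are exact at 95%. Totals were 492505 to 1678624 counts per cell, and a gene without a count is not shown to be absent. Since no mouse is named for a cell, no test or p-value was calculated. The 10 factors, the gene lists (targets, other transcription factors, subtype markers and markers of other cells) and the comparisons were chosen with earlier results of these data known. Genes named are the 10 factors, genes of those lists, and the 3 genes most correlated with each factor counted in at least 34 cells. Some genes that this rule names are not reported here.

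Alternatives were CPM and TMM scaling, thinning to 700471 counts (the 10th percentile, with the 7 cells below it left out), pseudocounts of 0.1 and 10, other minimums, runs of label numbers, only cells with a count, only cells free of other cell types' markers, the authors' values and leaving out each cell. Leaving out the top cell of each genotype, and summing after DESeq2 size factors, were added with the data in view. Scripts were tested on simulated data. No cells were clustered and doublets were not called. Exon lengths come from the RefSeq transcripts paired in GENCODE vM21, promoters from RefSeq (GRCm38.p6). Python 3.11.15 with numpy 2.4.6, scipy 1.17.1 and pandas 2.3.3, and R 4.3.3 with edgeR 4.0.16 (TMM factors), were used.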

Additional observations from a re-analysis of the deposited data

How the results depend on the processing

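No paired analysis was possible because no label number is shared between the genotypes and the comparison comes from no test. Ratios of summed counts by run and with 1 cell left out, several of which changed sign above, are not in the following tally. Of 138 differences of single factors recomputed under other settings, nearly all of them differences of mean levels, 6 changed sign. That of Sox6, 1.05 in all cells, was -0.12 in the first runs of label numbers. Over cells with a count alone, Foxa1 was at -0.35, Foxa2 at -0.50, Pitx3 at -1.43 and Otx2 at -0.08, where all cells gave 0.35, 0.73, 0.23 and 0.18. Otx2 was at -0.17 by summed counts. The number of factors past 2-fold was 3, and 1 (Lmx1a) when genes had to be counted in at least 34 cells, a filter that 3 factors pass. With each cell left out in turn it lay between 2 and 4, and it was 2 in thinned cells and in cells free of other cell types' markers, and 4 in the first runs, in the second runs, with DESeq2 size factors before summing and with no filter on low values. The median difference of mean levels over the factors was 0.54. It was 0.23 with a pseudocount of 10 and -0.08 over cells with a count alone. The median number of factors per cell was 4 in both genotypes, also in thinned cells (7 shallower cells left out), and 3 in both at minimums of 5 and 10 counts. In the first runs, and in cells free of other cell types' markers, it was 4 in 3xTg and 3 in WT. For the 7 factors counted in a minority of cells, a missing count does not show that a factor is absent.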

Other observations

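Other genes of neighbouring lineages were counted in most cells at low levels. Gad2, an enzyme of GABA synthesis, had a count in 68 of 68 cells, with a median of 22.8 counts. Slc6a2, the noradrenaline transporter gene, had a count in 60 cells (median 6.67 counts in those cells) and Gata3 in 64 (median 5.60), with WT cell 9 alone holding 40.2% of the Gata3 sum and up to 516 counts. Gata2, the paralog of Gata3, was counted in 8 cells (median 1 count) and Pou4f1, a factor of red nucleus and habenula neurons, in 22 (median 1 count). Dbh, Phox2a and Slc6a4 had no count in any cell.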
